A study of Homo sapiens with 11 samples.

Results

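The stop codon windows are the short stretches of mRNA, at most 100 bases long, annotated at the end of a coding sequence, from which RNA was recovered with RPS19 above input. They are the windows whose leading annotation in the deposited lists is the stop codon, a choice that used no measured value beyond the listing itself. There were 408 of them among 15402 windows listed for wild-type RPS19 (WT), 2519 of 86567 for the substitution R62W and 2716 of 93331 for R101H. Together they made 3433 different windows in 3071 genes, out of 122708 windows in 8694 genes by gene identifier (8692 gene symbols). Other windows with a stop codon annotation that is not the leading one were left out.

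The RNA came from HEK293T cells, a human embryonic kidney line with the SV40 large T antigen, and was measured by eCLIP, in which RNA is crosslinked to protein, cut, precipitated with the protein and sequenced. The precipitated protein was V5-tagged RPS19 from a transfected plasmid, in 3 samples with the WT protein, 3 with R62W and 2 with R101H. All 3 kinds of cells overexpressed RPS19 on top of their own copy, and the 3 size-matched input libraries came from cells without any plasmid. No IP group thus had an input from its own cells. Ratios over input and differences between groups therefore also hold any difference in RNA abundance between these cells, which was not tested. R62W and R101H are substitutions known from Diamond-Blackfan anemia, an inherited failure of red cell production, and the comparison asks how each alters the RNA found with the protein. Nothing in the labels ties replicates to separate cultures, and the spread behind each p-value may therefore be technical.

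RPS19 is a protein of the small ribosomal subunit, the part of the ribosome that decodes mRNA. A ribosome that reaches a stop codon does not take up another tRNA: release factors enter in its place, the finished protein is cut free, and the subunits are then split for another round. Ribosomes can dwell at stop codons while this happens, and the distance from the stop codon to downstream mRNA features is read by nonsense-mediated decay, which removes mRNAs with a premature stop. The region downstream of the stop codon, the 3′ UTR, is normally free of translating ribosomes.

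Enrichment is given as the log2 odds ratio of immunoprecipitate (IP) over input, as the authors' mean over the replicates in which a window passed, and a listed window passed in at least 2 replicates with a highest q under 0.2. Stop codon windows just inside that limit were the DDX5 window in WT (highest q 0.2, log2 odds ratio 0.85), the CAP1 window in R62W (0.2, 1.33) and the MRPL14 window in R101H (0.199, 1.01). Beyond the limit no values are given, and a window missing from a list has not been measured at 0.

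Stop codon windows were 2.65% of the WT list (exact Clopper-Pearson 95% interval 2.40 to 2.91), 2.91% of the R62W list (2.80 to 3.02) and 2.91% of the R101H list (2.80 to 3.02). These intervals cover counting error only, and windows of a gene are not independent. The number of stop codon windows was 6.17 times that of WT in R62W and 6.66 times in R101H, while the whole lists were 5.62 and 6.06 times as long. Against coding windows the order was the other way. Stop codon windows were 7.67% of stop codon plus coding windows in WT (6.97 to 8.42), 5.66% in R62W (5.44 to 5.88) and 5.60% in R101H (5.39 to 5.80). There were 2.10 stop codon windows per start codon window in WT, 1.69 in R62W and 1.70 in R101H. Thus coding windows multiplied more between the WT list and either substitution list than stop codon windows did, by more than the counting error.

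A stop codon window was present in 387 of the 3258 WT genes (11.9%), in 29.5% of the 7762 R62W genes and in 30.5% of the 8115 R101H genes. For 68 WT genes the stop codon window was the gene's only listed window, and this held for 104 genes in R62W and 81 in R101H. More than 1 stop codon window was listed for 18 genes in WT, 205 in R62W and 212 in R101H. Transcripts of a gene can end their coding sequences at different places, but some of these windows directly abut. Examples are the PPIA windows at chr7:44799775-44799826 and chr7:44799827-44799878. Why a gene had more than 1 was not tested, and a window of an abutting pair need not itself hold the stop codon. The highest number was 4, for PPIA (the peptidyl-prolyl isomerase cyclophilin A) in each list, for CCNL2 (cyclin L2) in both substitution lists and for DDX11 and DYNC1H1 in R62W.

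The median log2 odds ratio of stop codon windows was 1.67 in WT (quartiles 1.30 and 2.02, range 0.58 to 4.42), 1.68 in R62W (1.34 and 2.10, range 0.51 to 5.02) and 1.82 in R101H (1.43 and 2.29, range 0.58 to 5.17). In each list this lay between the medians of start codon windows (1.54, 1.57 and 1.59) and of coding windows (1.73, 1.83 and 1.95), and 3′ UTR windows were higher again (1.84, 1.90 and 2.05). The spread among stop codon windows was wider than the distances between these medians. In WT, 85 of the 408 windows (20.8%) passed in all 3 replicates, against 1170 (46.4%) in R62W. In R101H all 2716 passed in both of its replicates, since at least 2 were needed. Counts behind a window were modest, with a median of 31.7 IP reads per passing replicate for WT, 24.3 for R62W and 31.0 for R101H, and 10, 7.5 and 8 input reads. The coding windows of the same lists had 26.5, 21.0 and 25.5 IP reads per passing replicate.

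**Figure D1:**
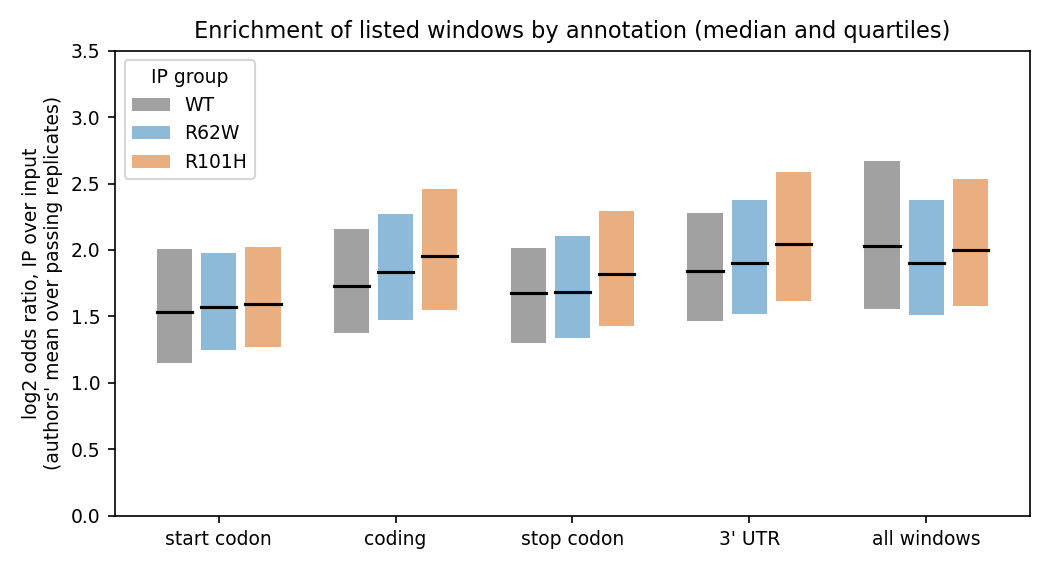
Log2 odds ratio of IP over input (vertical axis, from 0) for windows by leading annotation in the WT, R62W and R101H lists, where black lines are medians over windows and coloured boxes run between the quartiles. Stop codon windows (medians 1.67, 1.68 and 1.82) sit between start codon and coding windows in each list, and all the boxes overlap.

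The highest stop codon windows rested on almost no input reads. The highest in WT was that of AHNAK, which encodes a giant scaffold protein, at 4.42 (4.30 and 4.54 in its 2 passing replicates, from 21 IP reads and 0 input reads). In R62W it was IVNS1ABP at 5.02 (22 IP reads, 0 input reads), and in R101H a window of 10 bases in SRRM2, a splicing coactivator, at 5.17 (30 IP reads, 0 input reads). IVNS1ABP and SRRM2 were picked after their values were seen. The windows with most reads had ratios from 0.56 to 2.10. A stop codon window of ACTB (beta-actin, chr7:5527983-5528082, GRCh38, minus strand) led all lists with 1172 IP reads in WT, 1266 in R62W and 1171 in R101H, at 1.07, 1.29 and 1.62. TUBB (beta-tubulin) followed in WT with 941 IP reads and 1.34, and had 1.56 in R62W and 1.91 in R101H. PFN1 (profilin) had 1.31, 1.73 and 2.10. A further ACTB window (chr7:5527748-5527847) had 0.98, 0.85 and 1.18, and a PPIA window (chr7:44799827-44799878) 1.22, 1.53 and 1.90. KHSRP, an RNA-binding protein that promotes mRNA decay, was second by reads in both substitution lists (1149 and 1099 IP reads) at 0.56 and 0.85, and was not listed in WT. ACTB, TUBB and PPIA have processed pseudogenes, so reads there may be split among copies. The first ACTB window and those of PPIA and KHSRP are also annotated as intron, so they need not hold the stop codon of the main transcript.

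Windows differed in what else their bases were annotated as. Another transcript's 3′ UTR covered 92 of the 408 WT windows (22.5%), 19.7% in R62W and 19.0% in R101H. Their medians (1.58, 1.61 and 1.80) were below those of windows with no such annotation (1.68, 1.70 and 1.82), by far less than the spread among windows. Another transcript's intron covered 66 WT windows (16.2%), 15.4% in R62W and 14.5% in R101H, with medians of 1.49, 1.65 and 1.78. The windows of PTOV1, NIPBL, IGF2R, AGAP3 and HSPE1 named below carry this annotation. Exons of long non-coding RNAs covered 48, 262 and 254 windows. The full 100 bases were present in 59.8%, 65.0% and 66.3% of windows, and 46, 228 and 244 windows were under 50 bases. These short windows had the higher medians in each list (1.81, 1.88 and 2.11, against 1.63, 1.66 and 1.78 at 100 bases) and, in R62W and R101H, fewer input reads (medians 12 and 10, against 18 and 16).

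Base composition differed between the lists. The median share of G and C was 48.5% for WT, 50% for R62W and 51% for R101H. With windows split into 4 bins at the quartiles of all stop codon windows in any list, the most GC-rich bin (57 to 85%) held 12.7% of WT stop codon windows, 20.8% of R62W and 23.7% of R101H. Coding windows within the same limits made 18.0%, 21.9% and 22.0% of their lists, a smaller change. Within each list the most GC-poor bin, at most 43.75% G and C, had the higher median (1.86, 1.86 and 2.02) than the most GC-rich (1.62, 1.53 and 1.63). Pooled IP reads ran the other way, with medians of 50 in the GC-poor and 99 in the GC-rich bin in WT, and of 37 and 91.5 in R62W.

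Neighbours were counted only if they abutted the stop codon window in the genome and belonged to the same gene. They also had to be a coding window upstream or a 3′ UTR window downstream. Other touching windows, such as a further stop codon window, were not counted, and some stop codon windows may have no such neighbour. The shares are therefore of stop codon windows, not of existing neighbours. Each neighbour so defined was listed less often than not. In WT the abutting upstream coding window was listed for 38 of 408 (9.31%) and the abutting downstream 3′ UTR window for 61 (15.0%), and for 78.2% neither was. In R62W these shares were 23.0%, 36.7% and 52.0%, and in R101H 24.5%, 41.1% and 48.3%. Where a neighbour was listed, its level was close to that of the stop codon window. The median of stop codon minus upstream coding window was -0.08 for WT, -0.12 for R62W and -0.00 for R101H, and that of stop codon minus downstream 3′ UTR window was -0.08, -0.06 and -0.06. The stop codon window was the higher of the pair in 42.1% of upstream pairs in WT (26.3 to 59.2), 42.9% in R62W (38.9 to 47.1) and 49.7% in R101H (45.8 to 53.6). Of the 297 R62W stop codons with both neighbours listed, the stop codon window was the highest of the 3 in 67 and the lowest in 119, and of 376 in R101H in 107 and 123. Over these trios the median level at the stop codon (1.65 and 1.89) was below those of both neighbours (1.88 and 1.82 in R62W, 1.99 and 2.04 in R101H).

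Stop codon windows were also set against other windows of their own gene. Against the median of the coding windows of its own gene, the stop codon window differed by a median of 0.04 over 249 WT genes, -0.03 over 2033 R62W genes and 0.02 over 2221 R101H genes. Against the median of the gene's 3′ UTR windows it differed by -0.11 over 205 WT genes, -0.21 over 1809 R62W genes and -0.22 over 2045 R101H genes. The stop codon window was above the 3′ UTR of its gene in 42.0%, 34.5% and 36.6% of them. The medians against coding windows thus lay on both sides of 0, and those against 3′ UTR windows were below 0 in each list.

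Nearly all WT stop codon windows were found again with the substituted proteins, at identical coordinates. R62W listed 392 of the 408, which is 96.1% of the WT windows (93.7 to 97.7) and 15.6% of the R62W windows. Over windows of every kind the shares were 79.6% and 14.2%. For coding, 3′ UTR and start codon windows, the share of WT windows found in R62W was 93.8%, 95.2% and 91.2%. R101H listed 374 of the 408, 91.7% of WT (88.5 to 94.2) and 13.8% of R101H, against 72% and 11.9% over all windows and against 90.0%, 93.2% and 83.5% of WT for coding, 3′ UTR and start codon windows. R62W and R101H shared 1813 stop codon windows, 72.0% of R62W and 66.8% of R101H, with 69.2% and 64.2% over all windows. WT stop codon windows were thus recovered about as often as other exonic windows, and more often than the average window.

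By list, 369 windows were in all 3 (10.7%, against 8.66% of windows of every kind) and 1444 in both substitutions but not WT (42.1%, against 40.1%). R62W alone held 683 (19.9%, against 20.4%), R101H alone 898 (26.2%, against 26.9%) and WT alone 11 (0.32%, against 2.19%). Apart from WT alone, these shares were near those of all windows. The windows of both substitutions without WT had lower levels in R62W (median 1.62) than those in all 3 lists (1.89), and fewer pooled IP reads (64.5 against 131). In R101H the medians were 1.80 and 2.12. Of the 1707 genes with a stop codon window in both substitutions, 353 had one in WT, 896 had other WT windows but none at a stop codon, and 458 had no WT window at all. This split is not given for other kinds of window.

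**Figure D2:**
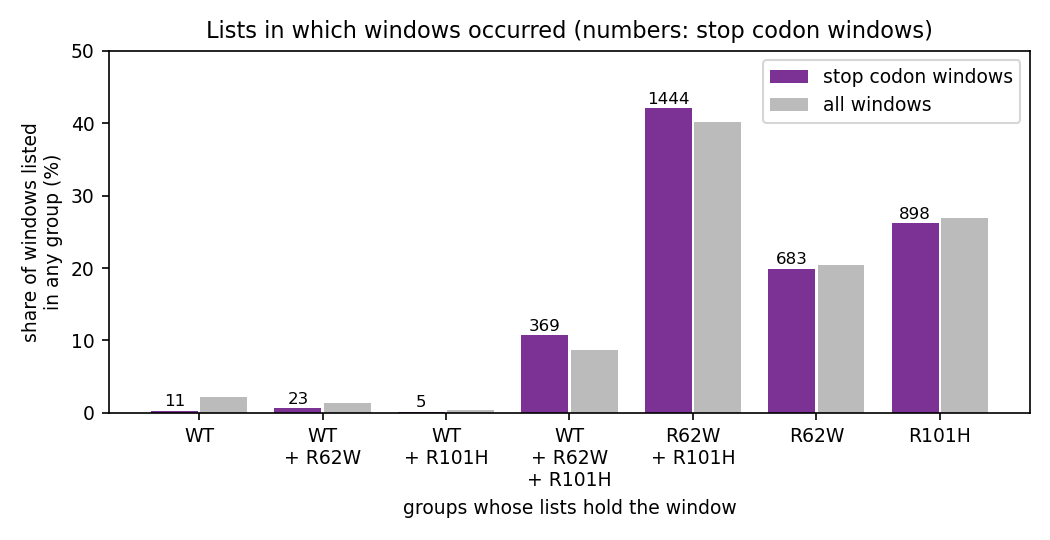
Share of windows (vertical axis, percent) by the lists that hold them, as a share of 3433 stop codon windows (purple) and of 122708 windows of all kinds (grey), with the number of stop codon windows above each purple bar. The purple and grey bars are close, and the purple bar is lower for WT alone (11 windows) and higher for all 3 lists (369 windows).

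The 11 WT-alone windows rested on few reads. After AHNAK, the highest were HMOX1 (heme oxygenase, 2.44 and 4.53 in its 2 passing replicates), HSPA4L (a heat shock protein, 2.46 and 3.13), SERTAD1 (2.14 and 2.96) and CD55 (a regulator of complement, 1.74 and 2.87). Their pooled input was 1, 4, 4 and 6 reads, and each passed in 2 of the 3 WT replicates.

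Among windows in all 3 lists, the highest in WT were those of NBPF20, PLEKHH3, VPS18, PTOV1, DBI, MED13L, FGFR2, ATOX1, AGAP3 and INSIG1, with WT means from 2.90 to 3.82. NBPF20 led at 3.0, 3.05 and 5.41 in the WT replicates, 3.99, 4.11 and 4.50 in R62W and 4.58 and 4.61 in R101H, on 4, 5 and 4 pooled input reads. It belongs to a family of near-identical copies, so its reads could be shared with other members. VPS18, part of the complexes that tether vesicles to lysosomes, had 2.75 and 4.26 in WT, 2.30 and 4.49 with R62W and 2.39 and 4.11 with R101H. MED13L, of the Mediator complex that links transcription factors to RNA polymerase, had 1.79 and 4.76 in WT, 2.43, 2.47 and 5.83 with R62W and 2.80 and 6.51 with R101H. In VPS18 and MED13L the replicates of 1 group lay further apart than the groups. DBI, which binds acyl-CoA, had 3.22 and 3.36 in WT, 1.83, 3.32 and 3.46 with R62W and 2.85 and 3.93 with R101H, with the groups overlapping. FGFR2 (a growth factor receptor), ATOX1 (a copper chaperone) and INSIG1 (a sterol-regulated membrane protein) had means of 3.09, 2.95 and 2.90 in WT, 2.98, 2.85 and 2.55 with R62W and 3.33, 3.03 and 2.76 with R101H. PLEKHH3 had 3.54, 3.75 and 3.54 and PTOV1 3.44, 3.82 and 4.32 in the same order.

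Of the windows not listed in WT and with at least 10 pooled input reads, the highest in R62W was NIPBL (chr5:37063924-37064023, plus strand), which loads cohesin onto chromosomes. Its replicates were 3.03, 3.49 and 3.61 in R62W and 3.25 and 3.83 in R101H, from 109 and 95 IP reads. DROSHA, the nuclease that releases miRNA hairpins (chr5:31401432-31401531, minus strand), was among the highest in both, with 2.25, 2.91 and 3.92 in R62W and 2.31 and 4.16 in R101H. The values of R62W and R101H overlapped in both windows. RBM6, an RNA-binding protein, had 3.05 in R62W and 3.10 in R101H, ASH1L, a histone methyltransferase, 3.01 and 2.58, and ATP5ME, a subunit of the ATP synthase, 2.92 and 2.87 in a window of 20 bases. The others that led in R101H were ANKS6, IGF2R (the receptor that carries lysosomal enzymes), DYNC2H1 (the ciliary dynein) and PUM2 (a repressor of translation), at 3.22, 3.14, 3.12 and 3.01. In R62W these had 2.68, 2.60, 2.36 and 2.16, and the lower R101H replicate was below the highest R62W replicate in ANKS6 (2.78 and 3.03), IGF2R (2.89 and 3.05) and DYNC2H1 (2.73 and 2.76), but not in PUM2.

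The mRNA of RPS19 itself has a stop codon window of 27 bases (chr19:41871351-41871377, plus strand). It was not listed in WT, had 3.42 and 4.23 in 2 R62W replicates (58 IP reads, 3 input reads) and 2.46 and 3.89 in R101H (29 IP reads, 2 input reads). Since RPS19 was also made from the plasmid in the IP cells alone, transcripts of plasmid and chromosome cannot be told apart here.

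Differences between groups were taken over stop codon windows listed in both groups, as the difference of the mean log2 odds ratios. For R62W minus WT the median was 0.25 (0.09 from the lowest and 0.43 from the highest replicate values) over 392 windows, with 300 above 0 (76.5%, against 72.4% of all windows). The same median was 0.34 for coding, 0.36 for 3′ UTR, 0.17 for start codon and 0.26 for all windows. For R101H minus WT it was 0.54 over 374 windows, with 332 above 0 (88.8%, against 82.5%), and 0.65, 0.80, 0.39 and 0.60 for the others in that order. For R101H minus R62W it was 0.21 over 1813 windows, with 1362 above 0 (75.1%, against 71.8%). These shifts were general: after each group was centred on its own median over the windows tested, the median of stop codon windows turned to -0.05 for R62W minus WT (all windows -0.04) and to -0.07 for R101H minus WT (all windows -0.01), and fell to 0.03 for R101H minus R62W (all windows 0.03). Both comparisons with WT share its 3 samples. Every passing R62W replicate was above every passing WT replicate in 97 of the 392 windows (24.7%, against 24.1% of all windows) and below in 17 (4.34%, against 4.24%). For R101H and WT these were 187 of 374 above (50%, against 48.4%) and 6 below (1.60%, against 3.84%), and for R101H and R62W 335 of 1813 above (18.5%, against 17.9%) and 57 below (3.14%, against 3.59%).

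WT windows that passed in 2 replicates have a mean over those 2 only, and just 85 stop codon windows passed in every replicate of WT, R62W and R101H. Over these 85 the median was 0.39 for R62W minus WT, with 82 above 0 (96.5%, against 83.7% of all windows). For R101H minus WT it was 0.82, with 82 above 0 (96.5%, against 83.4%). Coding windows had 0.74 and 1.11 and 3′ UTR windows 0.68 and 1.15 for the 2 comparisons, so stop codon windows lay lower than either, and centring turned their medians to -0.19 and -0.07. Every R62W replicate was above every WT replicate in 26 windows (30.6%, against 31.7%), and every R101H replicate in 56 (65.9%, against 55.5%). None of the 85 was below WT in every replicate in either comparison, where 1.5% and 4.21% of all windows were. Coding and 3′ UTR windows were above 0 in 93.1% and 95.6% for R62W minus WT and in 94.7% and 97.6% for R101H minus WT. Every R101H replicate was above WT in 67.8% and 74.4% of them, and below in 0.369% and 0.138%. For R62W these shares were 41.5% and 39.3% above, and 0.509% and 0.281% below. Stop codon windows were thus not more often above WT in every replicate than coding or 3′ UTR windows. For R101H minus R62W, over 1074 windows, the median was 0.28 (-0.00 after centring) and 221 lay above in every replicate (20.6%, against 19.2%) and 6 below (0.559%, against 1.03%).

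**Figure D3:**
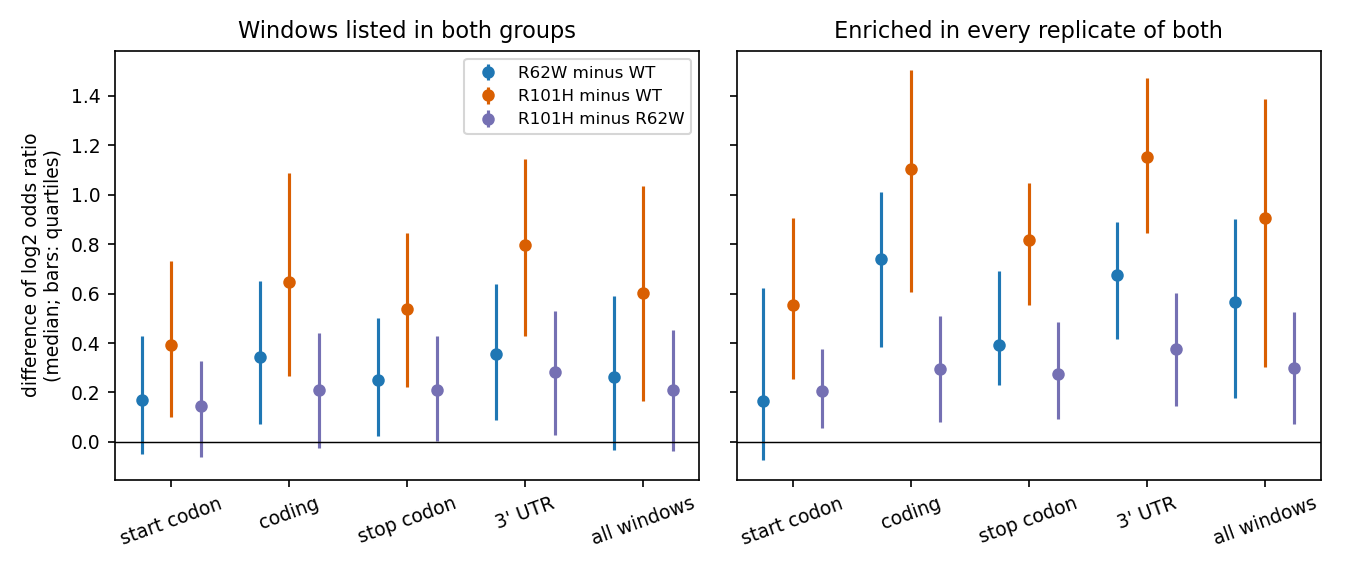
Difference of log2 odds ratio (vertical axis) between groups by leading annotation, for windows listed in both groups (left) and windows that passed in every replicate of both (right), with points at the median over windows and bars from the lower to the upper quartile. Stop codon windows (0.25, 0.54 and 0.21 on the left, 0.39, 0.82 and 0.28 on the right, before any centring, which turns or removes these shifts) lie below coding and 3′ UTR windows in both comparisons with WT.

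Differences were also compared within genes. In the 41 genes that had both stop codon and coding windows in every replicate, the difference at the stop codon minus that of the gene's coding windows had a median of -0.07 for R62W minus WT and -0.03 for R101H minus WT. Against the gene's 3′ UTR windows, in 41 genes for each comparison that are not all the same ones, it was -0.09 and, for R101H minus WT, -0.12. Over all shared windows the medians against coding windows were above 0 instead, at 0.06 for R62W minus WT (234 genes) and 0.10 for R101H minus WT (220 genes, higher at the stop codon in 63.6%), and those against 3′ UTR windows were -0.06 (195 genes) and -0.15 (194 genes). The quartiles of each of these lay on both sides of 0.

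Pooled reads were compared in the same windows. The WT and R62W tables draw on 1 set of input libraries, so similar inputs follow from the design. In the 85 windows the pooled input of R62W was 1.00 times that of WT and identical in 64 windows, and the pooled IP was 1.28 times that of WT. R101H, with 2 replicates, had 1.01 times the input and 1.80 times the IP reads of WT per replicate. No library totals are given in the tables, so these ratios also hold any difference in sequencing depth.

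With limma over all windows listed in both groups, no stop codon window passed an adjusted p of 0.05 in any of the 3 comparisons, and nor did any other window (0% called). An unadjusted p under 0.05 was reached by 23 of 392 stop codon windows against WT in R62W (10.2% of all windows) and by 57 of 374 in R101H (21.3%). Between R101H and R62W it was 30 of 1813 (1.8%). Restricted to windows that passed in every replicate, limma called 0 of 85 for R62W minus WT, where 0.0374% of all windows were called higher. An unadjusted p under 0.05 was reached by 14 of these 85, against 26.9% of all windows. For R101H minus R62W it called 0 of 1074, with 24 at an unadjusted p under 0.05, against 2.48% of all windows. For R101H minus WT it called 8 of 85, all higher, where 17.8% of all windows were called higher and 0.403% lower. Of all windows 44.5% had an unadjusted p under 0.05 there, and so had 32 of the 85. None of the 8 was called after centring.

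The number called for R101H minus WT moved with the windows tested. Among shared windows with at least 10 pooled input reads it was 15 of 296 (9.32% of all windows called higher, 33.2% at an unadjusted p under 0.05). With 2 settings chosen after seeing the data, it was 19 of 85 with an intensity trend in windows that passed in every replicate (27.7% called higher, 0.44% lower), and 23 of 74 of those with at least 10 input reads (46.9% called higher). In each setting the share called among stop codon windows was below that of all windows. For R62W minus WT none was called at 10 or more input reads, where 0.0131% of all shared windows were called higher, and 0.0477% of those that passed in every replicate (34.4% at an unadjusted p under 0.05).

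The 8 windows had the following values, with windows on GRCh38. HERC2, a giant ubiquitin ligase, has its stop codon window at chr15:28111763-28111862 on the minus strand, with 2.08, 2.85 and 2.97 in WT, 2.38, 4.61 and 4.63 with R62W and 4.84 and 5.26 with R101H. Both R101H replicates were above all others, and R62W overlapped WT. The difference from WT was 2.42 (SE 0.40, limma adjusted p = 0.0456) for R101H and 1.24 (SE 0.64, limma adjusted p = 0.245) for R62W. Only 6 pooled input reads stood behind the R101H value, and HERC2 has partial copies in the genome that could share its reads.

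UBR4, another giant ubiquitin ligase, has a window of 65 bases at chr1:19074832-19074896 on the minus strand. Its replicates were 1.48, 1.70 and 2.10 in WT, 2.28, 2.61 and 3.0 with R62W and 3.21 and 4.0 with R101H, so that the 3 groups did not overlap. The difference of R101H from WT was 1.85 (SE 0.39, limma adjusted p = 0.0456). It rested on 41 input reads pooled over 2 replicates in R101H and 72 pooled over 3 in WT.

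ESPL1 encodes separase, the protease that opens cohesin when chromosomes separate (chr12:53293375-53293474, plus strand). It had 1.57, 1.63 and 1.70 in WT, 2.14, 2.53 and 2.59 with R62W and 3.22 and 3.53 with R101H, again in separate ranges, with a difference of 1.74 between R101H and WT (SE 0.30, limma adjusted p = 0.0456). BCOR, a transcriptional corepressor (chrX:40052109-40052208, minus strand), had 1.35, 1.75 and 2.05, then 2.32, 2.65 and 2.73, then 3.44 and 3.57, with a difference of 1.79 (SE 0.34, limma adjusted p = 0.0456). SPEN, a large repressor needed for silencing of the X chromosome (chr1:15939328-15939427, plus strand), had 1.36, 1.79 and 1.85 in WT, 2.78, 2.85 and 2.97 with R62W and 2.84 and 3.59 with R101H. SPEN differed in that R62W and R101H overlapped while both were above WT, with differences of 1.55 for R101H (SE 0.37, limma adjusted p = 0.0469) and 1.20 for R62W (SE 0.26, limma adjusted p = 0.119).

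PTMS encodes parathymosin, a small acidic nuclear protein, and its window has 42 bases (chr12:6770157-6770198, plus strand). It had 1.15, 1.33 and 2.06 in WT, 2.38, 2.76 and 3.09 with R62W and 3.38 and 3.54 with R101H, with a difference of 1.95 (SE 0.39, limma adjusted p = 0.0456). ARHGDIA (chr17:81868876-81868975, minus strand) had the most reads of the 8, with 426, 666 and 671 pooled IP reads. Its replicates were 1.56, 1.62 and 1.70, then 2.11, 2.32 and 2.65, then 2.88 and 2.93, with a difference of 1.28 (SE 0.29, limma adjusted p = 0.0456). AGAP3, a GTPase-activating protein (chr7:151122725-151122787, plus strand), lay at the limit with a difference of 1.89 (SE 0.50, limma adjusted p = 0.050). Its R101H replicates were 4.50 and 5.12, and the lower of them was below the highest R62W replicate (4.56) and above all WT replicates (2.16, 2.97 and 3.62). It rested on 7 input reads pooled over 3 replicates in WT and 3 pooled over 2 in R101H.

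The largest differences for R62W minus WT were in SETD2, HERC2, PTMS, NBPF19 and SPEN. SETD2, a histone methyltransferase (chr3:47017093-47017192, minus strand), had 2.06, 2.25 and 3.5 in WT, 3.47, 3.47 and 5.10 with R62W and 3.76 and 4.02 with R101H. The difference was 1.41 (SE 0.58, limma adjusted p = 0.177), and the highest WT replicate was above the lower R62W replicates. NBPF19, of the same family of copies as NBPF20, had 2.20, 2.53 and 3.32, then 3.70, 3.81 and 4.16, then 4.01 and 4.87, with 1.21 for R62W (SE 0.36, limma adjusted p = 0.119) and 1.76 for R101H (SE 0.47, limma adjusted p = 0.0504).

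At the other end some windows hardly differed between the groups. TUBB4B, a beta-tubulin, had 1.16, 1.22 and 1.45 in WT, 0.85, 1.31 and 1.74 with R62W and 0.99 and 1.64 with R101H, on 431, 436 and 381 pooled IP reads, and its differences from WT were 0.02 (SE 0.31) and 0.04 (SE 0.34). CTNNB1, beta-catenin, had 1.39, 1.63 and 1.63, then 1.44, 1.56 and 1.77, then 1.61 and 2.23. MDH1, cytosolic malate dehydrogenase, had 1.13, 1.63 and 2.10, then 1.07, 1.19 and 1.65, then 1.19 and 2.31, and its R62W minus WT difference of -0.32 (SE 0.34, limma adjusted p = 0.546) was the lowest of the 85. CDKN1A, the cell cycle inhibitor p21, had 1.51, 2.45 and 2.46 in WT, 1.19, 1.77 and 2.66 with R62W and 2.60 and 2.81 with R101H. Its mean was below WT in R62W, with overlapping replicates (difference -0.27, SE 0.46). Both R101H replicates were above all WT replicates and overlapped those of R62W (difference from WT 0.56, SE 0.41, limma adjusted p = 0.315). BLCAP had differences of -0.15 (SE 0.45) for R62W and -0.06 (SE 0.47) for R101H. For R101H the lowest was PET100, an assembly factor of the mitochondrial respiratory chain, at -0.36 (SE 0.42, limma adjusted p = 0.531). COPS9, of the COP9 signalosome, had -0.01 (SE 0.42) and a window of the mitochondrial chaperonin HSPE1 0.10 (SE 0.75), where 1 WT replicate stood at 3.69 beside 1.28 and 1.55.

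**Figure D4:**
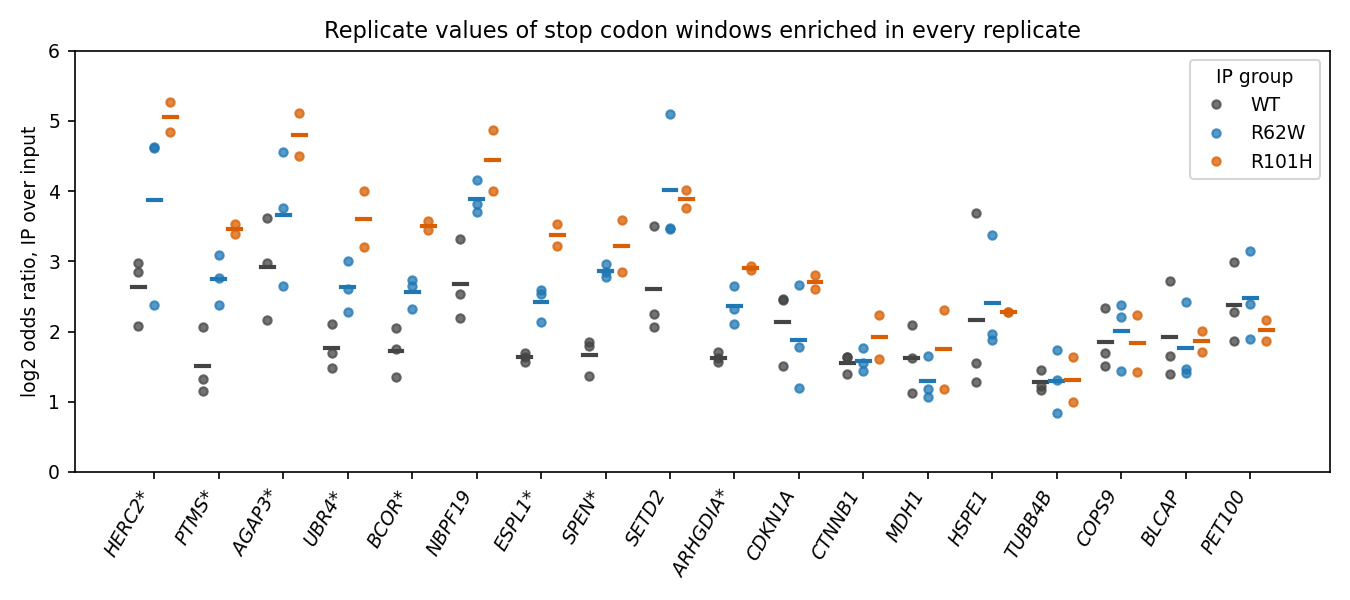
Log2 odds ratio of IP over input (vertical axis) in each replicate (points) with the group mean (bars) for the stop codon windows named for their differences among the 85 that passed in every replicate, ordered by R101H minus WT. Asterisks mark the 8 called for R101H minus WT before centring, and the R101H points lie above the WT points in all of the 8, while the groups overlap from MDH1 to PET100.

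In 9 genes the deposited lists held the stop codon window and both abutting windows for all 3 groups, and in these the difference could be followed across the stop codon. In HERC2 the R101H minus WT rise from 2.64 to 5.05 at the stop codon stood beside 2.86 to 4.90 in the upstream coding window and 1.71 to 2.79 in the downstream 3′ UTR window. In SPEN the stop codon window went from 1.67 to 3.22, the upstream from 1.90 to 3.07 and the downstream from 1.58 to 3.24. In ARHGDIA the stop codon window went from 1.63 to 2.91, the upstream from 1.14 to 1.75 and the downstream from 2.34 to 3.43. In TUBB4B the values were 1.28 and 1.32 at the stop codon, 1.10 and 1.49 upstream and 1.35 and 1.76 downstream. The others were PCNX3, KHDC4, SCRIB, TUBB and DHX9. Over the 9 the median difference of R101H minus WT was 0.91 upstream, 0.61 at the stop codon and 1.02 downstream. That of R62W minus WT was 0.46, 0.41 and 0.22, with the downstream window lowest, and over 215 such trios R101H minus R62W had 0.22, 0.31 and 0.35.

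By gene group, the genes with a stop codon window were 4.45% in WT, 26.3% in R62W and 28.5% in R101H of the 8692 gene symbols with any listed window, and 35.3% in any of the lists. Counts for each group are of its genes among these 8692, and the groups were drawn up with earlier results of these data known. No member passed the limma test over all shared windows, and in the test of windows that passed in every replicate the members called were HERC2 and UBR4. Other settings without centring also called HUWE1 and IMP3 for R101H minus WT. HUWE1 had a limma adjusted p = 0.0444 among shared windows with at least 10 input reads.

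The first groups are genes that act at the stop codon or whose mRNAs have an unusual one. Of 14 genes of translation termination and ribosome recycling, 1 had a stop codon window in WT, 5 in R62W and 4 in R101H. The one in WT was TRMT112, the partner of the methyltransferase that modifies the release factor, with 1.91 in WT, 1.64 with R62W and 1.48 with R101H. ETF1, the release factor that reads stop codons, was listed at 1.05 in R62W and 1.38 in R101H. Of 22 genes of nonsense-mediated decay, 3, 8 and 7 had one. UPF1, its central helicase, had 2.39, 2.51 and 2.70, MAGOH, of the exon junction complex, 2.10, 2.17 and 2.27, and EIF4A3, the helicase of that complex, 1.96, 1.94 and 2.59. Of 9 genes with known stop codon readthrough, 2, 3 and 3 had one, namely MDH1 and MTCH2 in WT and R62W, SACM1L in R62W and R101H (1.93 and 2.31), MDH1 in R101H and AMD1 in R101H (1.22). Of 15 selenoprotein genes, whose mRNAs read a stop codon as selenocysteine, none, 1 and 2 had one, with GPX4 at 1.23 in R62W and 1.81 in R101H.

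Ribosome quality control genes, which deal with stalled and collided ribosomes, had a window in 1 of 19 genes for WT, 6 for R62W and 10 for R101H. ZNF598, the sensor of collided ribosomes, was listed in R101H alone at 2.60, as was ASCC3, the helicase that splits them, at 2.59. GIGYF1, a repressor of translation, had 2.06 in R62W and 2.82 in R101H. Of 46 large subunit ribosomal protein genes 2, 9 and 6 had one, and of 31 small subunit genes 3, 8 and 9. Their medians in R62W were 1.07 and 1.69, beside 1.68 over all stop codon windows, and in R101H 1.08 and 1.21, beside 1.82. RPS29 led after RPS19, in a window of 9 bases, with 1.77, 2.38 and 3.62 in WT, 2.60, 2.89 and 4.09 with R62W and 2.83 and 2.97 with R101H, all overlapping. RPL39 had 1.02, 1.00 and 1.47. Ribosomal protein genes have many processed pseudogenes, so their reads are uncertain.

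Initiation factors had a stop codon window in 5, 13 and 12 of 32 genes, led by EIF3D (2.58, 2.63 and 3.30), a subunit of the factor that joins the small subunit to mRNA. Small subunit biogenesis factors had 1, 15 and 12 of 44. The 1 in WT was IMP3, of the U3 particle that processes ribosomal RNA, with 1.57, 1.95 and 3.08 in WT, 2.23, 2.83 and 3.55 with R62W and 3.26 and 4.25 with R101H. Its difference of 1.55 between R101H and WT (SE 0.56) had a limma adjusted p = 0.0858 among windows that passed in every replicate. Among those with at least 10 input reads, a setting chosen after seeing the data, the limma adjusted p was 0.0304. Large subunit biogenesis factors had 2, 13 and 17 of 38, led among windows in all lists by MDN1, the giant ATPase of that pathway (1.99, 2.86 and 3.34). Aminoacyl-tRNA synthetases had none, 4 and 6 of 19, chaperones 4, 9 and 9 of 28, and proteasome subunits 1, 15 and 12 of 29, with PSMC5 at 2.09 in R62W and 2.59 in R101H. No gene of the replication-dependent histones was listed.

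The giant ubiquitin ligases had the highest count for their number, a list drawn up with the HERC2 result known and so no independent evidence. Of 12 genes, 6 had a stop codon window in WT, 11 in R62W and 11 in R101H, with medians of 2.07, 2.65 and 3.17 beside 1.67, 1.68 and 1.82 over all stop codon windows. In the 6 shared with WT the mean was above WT in each for R62W and for R101H, as in 76.5% and 88.8% of all shared stop codon windows. The median differences, without centring, were 0.90 and 1.64, beside 0.25 and 0.54 over all stop codon windows. BIRC6, an inhibitor of apoptosis, had 1.76 and 2.25 in WT, 2.63, 2.85 and 3.32 with R62W and 3.59 and 4.01 with R101H, in separate ranges (limma adjusted p = 0.162 for R101H minus WT over all shared windows). HUWE1 had 1.59 and 1.78, then 1.82, 2.28 and 3.20, then 2.98 and 3.36. HECTD4 had 1.44 and 2.85, then 2.91, 3.02 and 3.88, then 3.18 and 3.31. CUL7, MYCBP2, RNF213, HERC1 and TRIP12 were listed in both substitutions and not in WT, with 1.72 to 3.61 in R62W and 2.27 to 3.31 in R101H.

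**Figure D5:**
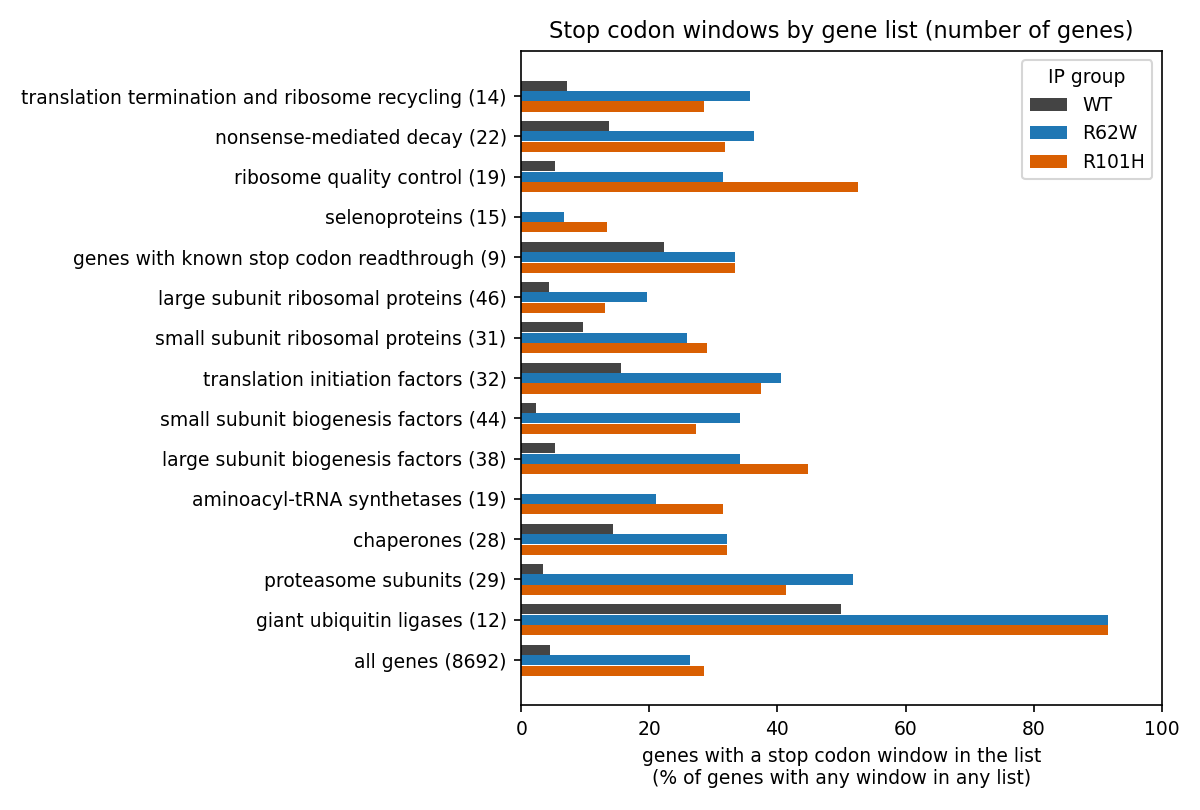
Share of genes with a stop codon window in the WT, R62W and R101H lists (horizontal axis, percent of the genes of each group with any listed window) for 14 gene groups and for all 8692 genes, with the number of genes in brackets. The giant ubiquitin ligases reach 6, 11 and 11 of 12 genes, beside 4.45%, 26.3% and 28.5% of all genes.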

How the data were processed

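Per the submitters' processing notes, reads were handled with fastp and STAR on GRCh38; tool versions and the program that called windows are not given here. The authors deposited 1 window table per IP group, made from all its replicates. Per the file headers, the deposited counts are whole numbers of reads in a window, the log2 values are log2 odds ratios (lowest, mean, highest), p-values and q-values come from the authors' test, the fraction is G plus C, and another deposited column gives the number of replicates passed. From the values, log2 values and counts cover passing replicates only: pooled input of R62W was 1.63 times that of WT in 258 windows that passed in 3 R62W and 2 WT replicates, and 1.00 times in 85 that passed in 3 of each.

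Replicate values were rebuilt from lowest, mean and highest, without replicate numbers. limma 3.58.1 (lmFit, eBayes, R 4.3.3, no pseudocount) was fitted over all windows listed in both groups, adjusted by Benjamini-Hochberg over them at 0.05. It was also run on simulated data with large planted shifts, which does not show how it performs at the smaller differences found for most windows. Pooled counts allowed no count model. Intervals are Clopper-Pearson (scipy 1.17.1). Windows were named by rule: the 10 highest in WT in all lists, the 5 highest per substitution not in WT with at least 10 input reads, the 5 highest and 5 lowest differences per substitution, the limma calls in windows that passed in every replicate, the 5 with most IP reads per list, the 5 highest in WT alone, and the leading members of 15 gene lists; other windows were chosen after their values were seen. Members and lists were chosen with earlier results of these data known. Which stop codon each window holds was not analysed here, nor were the deposited repeat element tables.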

Additional observations from a re-analysis of the deposited data

How the results depend on the processing

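No paired analysis was possible because the deposited replicate values carry no replicate number, and for the same reason no replicate could be left out in turn. For R101H minus WT, limma called 0 of 374 stop codon windows over all shared windows, 8 of 85 that passed in every replicate and 15 of 296 with at least 10 pooled input reads. With 2 settings chosen after seeing the data, it called 19 of 85 with an intensity trend in windows that passed in every replicate, and 23 of 74 of those with at least 10 input reads, where 27.7% and 46.9% of all windows were called higher. ESPL1, PTMS, BCOR, UBR4, SPEN and ARHGDIA were the 6 called under each of these 4 settings, while HERC2 and AGAP3 had too few input reads to be tested in those with at least 10, and AGAP3 was not called with the trend. Centring, the trend over all shared windows and the wider definition of a stop codon window gave 0. R62W minus WT and R101H minus R62W gave 0 under all 9 settings. Among windows at a highest q of at most 0.05, stop codon windows made 2.95% in WT and 3.11% in R101H. They made 3.04% of R62W windows that passed in every replicate, and 3.06% of R101H at equal list length. At that q, R62W shared 80.7% of WT windows, R101H 94.3% of WT windows and 78.4% of R62W windows. The other 55 values computed under alternatives kept their direction and side of the threshold, with the median of R62W minus WT from 0.09 with the lowest to 0.43 with the highest replicate values, against 0.25. Centring each group on its own median, given with the differences, turned the medians of both comparisons with WT below 0. Few input reads limit the highest ratios.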
